A study of Drosophila melanogaster with 6 samples.

Results

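The antimicrobial peptide genes of Drosophila melanogaster were followed in 6 ovary libraries, as 10 genes chosen by name: Dro, AttA, AttB, AttC, AttD, DptA, DptB, Drs, Def and Mtk. All 10 were found among the 17559 genes of the count tables, 9 by their gene ID and Drs by its position, since its ID has changed since the tables were made. Poly(A) RNA of dissected ovaries from flies kept at 25 °C was read as 3 mutant and 3 control libraries. The mutant group was RanBP9D1/BSC469, allele D1 of the Importin-9 gene Ipo9, formerly RanBP9, over the deficiency BSC469. The control group was w1118/BSC469, so both groups share the deficiency. Importin-9 brings actin into the nucleus, and the question of the series is how a shortage of actin there affects transcription. The labels give neither the age of the flies nor the number of ovaries per library, and they do not say whether the groups share the rest of their genome, so allele D1 and other differences between the stocks cannot be told apart. They also do not say that replicates came from separate dissections, so p-values measure only the spread between these libraries. Between libraries of a group that spread exceeded counting noise, at a chi-square per degree of freedom of 7.30 to 15.0. Its source was not tested.

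Antimicrobial peptides are short secreted proteins that kill bacteria and fungi. In flies most of their genes are silent or weakly expressed until microbial cell wall fragments activate the Imd pathway, which ends in the transcription factor Relish, or the Toll pathway, which ends in Dorsal and Dif. The fat body makes them for the blood, and epithelia such as the gut and the female genital tract make some of them locally, in places without infection. Drosomycin in the spermathecae and Drosocin in the oviduct are known examples of such standing expression.

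Each library held between 21583524 and 26483578 counted reads. Levels are given as read counts and as CPM, read counts scaled for the depth and composition of each library. A gene was called at an adjusted p under 0.05, from the quasi-likelihood test of edgeR and Benjamini-Hochberg adjustment over every gene tested. The adjusted p-values below are edgeR's unless another tool is named. Ovary markers were abundant in every library, at 14747 to 16954 CPM summed over 13 genes in mutant and 19476 to 23178 in control libraries. Ipo9 lay at 91.1 to 98.3 CPM in mutant and 116 to 155 CPM in control libraries, and its log2 fold change was -0.47 (SE 0.12, edgeR adjusted p = 0.0544). It was called lower by DESeq2 (adjusted p = 7.0e-05) and limma-voom (0.0235), and by edgeR after control replicate 2, the highest library, was left out (0.00551). In whole ovaries, fewer cells of a type and less RNA per cell cannot be told apart.

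A pair of mutant libraries held reads of gut or spermatheca marker genes that the other libraries all but lacked. Of 12 gut markers, 9 were detected, and Jon66Ci, Amy-p and Amy-d were at 0. Without LManII, which was abundant in all 6 libraries and was set apart after its values were seen, the gut markers summed to 1, 3132 and 73 counts in mutant replicates 1, 2 and 3 and to 6, 1 and 0 in control replicates 1, 2 and 3. LManII itself, at 97.9 to 119 CPM in mutant and 71.7 to 81.3 CPM in control libraries, was called higher (log2 fold change 0.48, SE 0.08, edgeR adjusted p = 0.00519), and with it the markers summed to 101 to 255 CPM in mutant and 71.7 to 81.5 CPM in control libraries. The spermatheca protease genes Send1 and Send2 had 20 and 51 counts in mutant replicate 3, while Send2 had 1 count in control replicate 1 and both were at 0 elsewhere. The whole list of 8 spermatheca and oviduct markers summed to 113 to 128 CPM in mutant and 122 to 124 CPM in control libraries. Mutant replicate 2 thus stood apart by its gut markers, mutant replicate 3 by Send1, Send2 and a small amount of gut markers, and mutant replicate 1 by neither.

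The peptide genes were near the limit of detection in control ovaries, and 3 of the 10, Dro, AttA and Def, were called higher in mutant ovaries. Summed over the 10 genes, mutant replicates 1, 2 and 3 held 95, 1486 and 830 counts, and control replicates 1, 2 and 3 held 17, 15 and 14. Without Drs, which alone supplied most of the reads in mutant replicates 2 and 3, the sums were 95, 331 and 234 against 16, 15 and 13. The lowest mutant sum, that of mutant replicate 1, was 3.72 CPM and lay above the highest control sum of 0.690 CPM. These 3 were the members with enough reads to test, where 8.31% of the 8110 genes tested were called higher and 14.5% were called in either direction. Among tested genes with a mean under 5 CPM, the range in which Dro, AttA and Def lie, 7.76% were called higher. Dro, AttA and Def passed the filter on low counts mainly through the mutant libraries, so their count is a description. When every gene with at least 1 count was fitted, all 10 members entered and the same 3 were called higher, against a background of 5.86% of 12374 genes. The mutant libraries lay wholly above the control libraries in 4 of the 10 members, the fourth being AttB. Among all genes with at least 1 count, 13.9% were placed so, and among tested genes 18.4%.

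**Figure D1:**
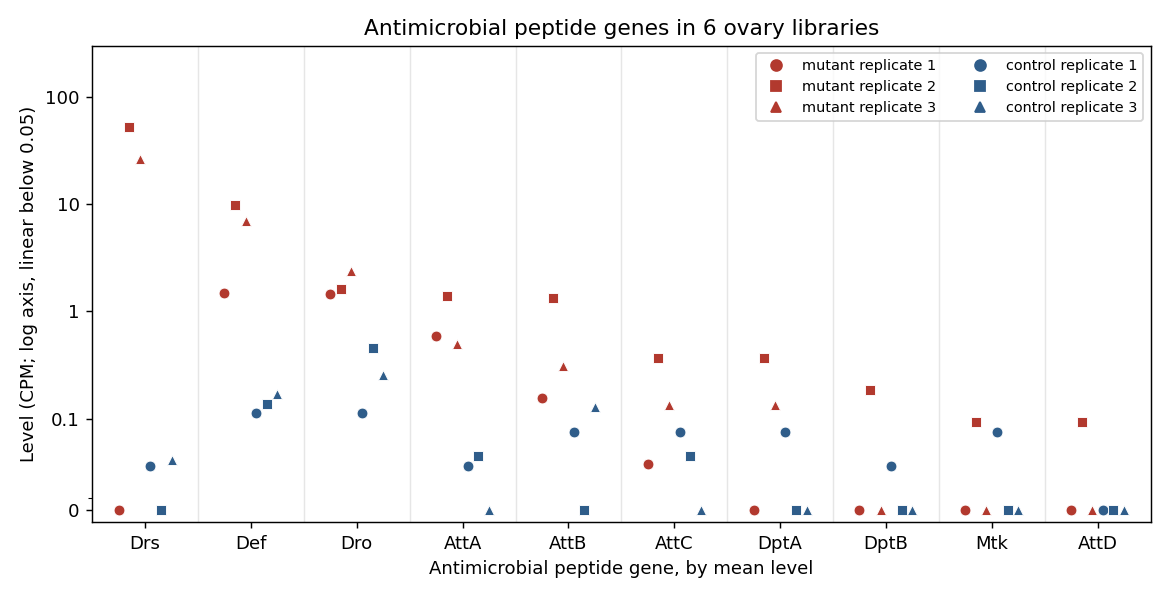
Level of each antimicrobial peptide gene in every library, in CPM on a log axis that is linear below 0.05, with genes ordered by mean level. Red symbols are the 3 mutant and blue symbols the 3 control libraries, and the symbol shape gives the replicate number. Dro, AttA, AttB and Def have every mutant library above every control library, and Drs is high in mutant replicates 2 and 3 alone.

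The Drosocin gene and a pair of attacin genes lie side by side on chromosome arm 2R, between 14745961 and 14750165 in the BDGP6 (dm6) build. Drosocin is a proline-rich peptide and attacins are glycine-rich proteins, and both act mainly on Gram-negative bacteria and are read out through Imd. Dro (FBgn0010388), a single-exon gene at 14745961 to 14746714 on the plus strand, had 37, 35 and 53 counts in mutant replicates 1, 2 and 3 and 3, 10 and 6 in control replicates 1, 2 and 3. The mutant libraries were alike and did not overlap the control libraries. In scaled units Dro rose from 0.276 ± 0.174 to 1.81 ± 0.490 CPM (SD, n = 3 each), a log2 fold change of 2.73 (SE 0.44, edgeR adjusted p = 0.00356).

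AttA (FBgn0012042), at 14747362 to 14748215 on the plus strand with 2 exons, had 15, 30 and 11 counts in the mutant and 1, 1 and 0 in the control libraries. The groups did not overlap, and with 2 control reads in all the size of the rise is known only roughly. The ratio of scaled group sums was 28.8 (exact 95% counting interval 7.62 to 244), and the edgeR adjusted p was 0.00399. Mean AttA levels were 0.819 ± 0.488 CPM in mutant and 0.0279 ± 0.0245 CPM in control ovaries (SD, n = 3 each).

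AttB (FBgn0041581), at 14749223 to 14750165 on the same strand, is a near-identical copy of AttA, so reads of one may have been counted for the other. It had 4, 29 and 7 counts in the mutant and 2, 0 and 3 in the control libraries. The groups touched without overlapping, since mutant replicate 1 lay at 0.156 CPM and control replicate 3 at 0.128 CPM, and most reads came from mutant replicate 2. Its ratio was 8.24 (counting interval 3.25 to 26.8), and it had too few reads for the test. Leaving out mutant replicate 2 brought that ratio to 3.29, and leaving out control replicate 3 brought it to 13.9. In the fit without the filter its adjusted p was 0.119 (edgeR). AttA held 3.75 times the reads of AttB in mutant replicate 1, 1.03 times in replicate 2 and 1.57 times in replicate 3. These ratios rest on 4, 29 and 7 reads of AttB, and the source of their spread was not tested.

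Neighbouring genes did not share these changes in size. Of 6 tested genes within 10 kb of the cluster, 2 were called, where 14.5% of all tested genes were called in either direction. These were CG10151 at a log2 fold change of 0.67 (SE 0.19, edgeR adjusted p = 0.0438) and the Ras signalling inhibitor gene Spred at 0.17 (SE 0.04, edgeR adjusted p = 0.0306). The proteasome gene Rpn6, which lies directly beside AttB on the other strand, was at 0.02 (SE 0.04). Over the members with tested neighbours within 10 kb, which leaves out AttC and AttD, 18 such neighbours had log2 fold changes of -0.21 to 0.67. Of these 18, 4 were called, against the same 14.5%.

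Defensin, a disulfide-bonded peptide active on Gram-positive bacteria, had the largest fold change of the tested members. Def (FBgn0010385) is a single-exon gene at 10054178 to 10054576 on the minus strand of 2R, inside an intron of magu on the opposite strand. It had 38, 213 and 157 counts in the mutant and 3, 3 and 4 in the control libraries. Every mutant library was above every control library, with mutant replicate 1 well below the other two. Mean levels were 6.10 ± 4.23 and 0.140 ± 0.0288 CPM in mutant and control ovaries (SD, n = 3 each), a log2 fold change of 5.39 (SE 0.92, edgeR adjusted p = 0.0162) and a ratio of 42.0 (counting interval 22.6 to 88.3). It ranked 6 among the fold changes of all 8110 tested genes, AttA 9 and Dro 16. The host gene magu, which encodes a secreted BMP modulator, rose by 0.27 (SE 0.05, edgeR adjusted p = 0.00998).

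The call of Def depended on the libraries used. Its adjusted p was 0.0510 without mutant replicate 3, 0.105 without control replicate 1, 0.0807 without control replicate 2, 0.0724 without control replicate 3 and 0.117 without both libraries numbered 2, and limma-voom gave 0.0654. Without mutant replicate 2 it was 0.0240. Its log2 fold change stayed between 4.81 and 5.86 in these and the other alternatives except that with mutant replicate 1 as the sole mutant library.

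The rise of all 3 called genes was also present in mutant replicate 1, the mutant library with 1 read of gut markers besides LManII and none of Send1 or Send2. Against the 3 control libraries, that library alone gave a log2 fold change of 2.41 for Dro, 4.16 for AttA and 3.37 for Def. This choice was made after the data were seen, and the fit assumes that a lone mutant library varies as the control libraries do. Its p-values and calls are therefore left out. Summed markers of mutant replicate 1 lay within the control range for the fat body (59.4 against 58.8 to 82.7 CPM) and hemocytes (355 against 348 to 367 CPM). They lay above it for muscle (701 against 628 to 700 CPM) and neurons (6.10 against 2.78 to 3.91 CPM). Of the fat body and hemocyte markers with the most reads, Lsp1beta (33 counts), Apoltp (33), Pxn (150) and PPO2 (11) were highest in that library. Lsp2, apolpp, ppl, Hml, srp and crq were not. The part of these tissues in the rise was not tested. Without mutant replicate 2 and its gut markers the adjusted p was 0.00739 for Dro and 0.0110 for AttA (edgeR). The excess of Def and AttA in mutant replicate 2 was larger than in replicate 1, and the part of gut tissue in that excess was not tested.

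**Figure D2:**
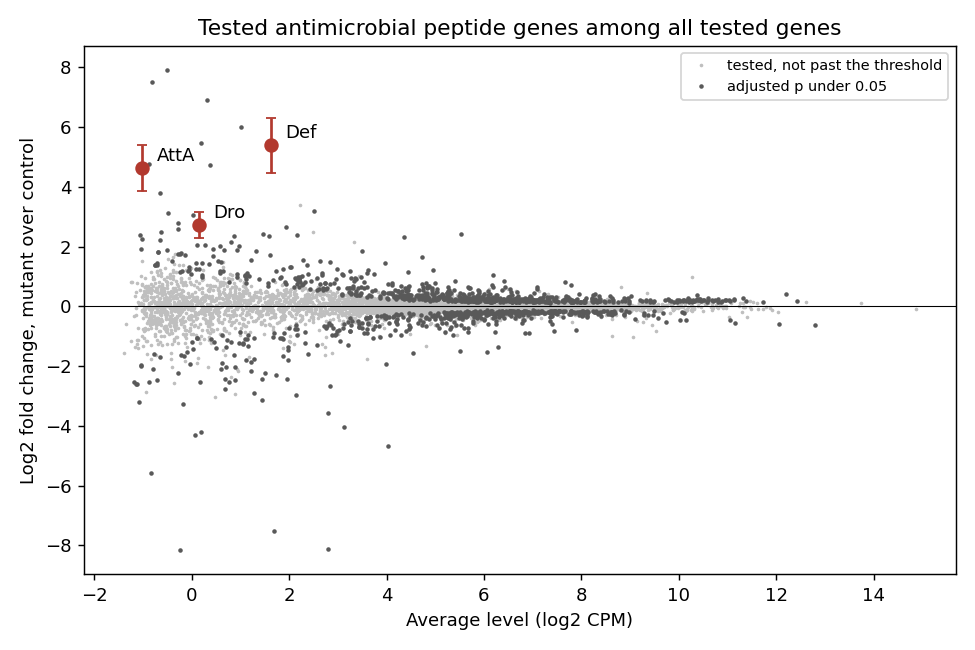
Log2 fold change, mutant over control, against average level in log2 CPM for the 8110 tested genes, with called genes in dark grey. Red points with SE bars mark Dro at 2.73, AttA at 4.63 and Def at 5.39, among the largest rises at low levels, and the fitted value of AttA rests on 2 control reads and so on the model's prior count.

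Drosomycin showed a different pattern, present in 2 libraries and absent from the third. Drs (FBgn0010381 in the tables, FBgn0283461 in the current annotation), at 3369556 to 3369942 on the plus strand of 3L, encodes an antifungal peptide and is the usual readout of Toll. It had 0, 1155 and 596 counts in mutant replicates 1, 2 and 3 and 1, 0 and 1 in control replicates 1, 2 and 3. Mutant replicate 1 was at the control level, where a count of 0 allows up to 0.117 CPM, and the other mutant libraries lay at 53.1 and 26.6 CPM. The ratio of scaled group sums was 902 (counting interval 249 to 7452), an interval that does not cover the spread between the mutant libraries. It was 446 without mutant replicate 2, 1424 without mutant replicate 1 and 0 with mutant replicate 1 as the sole mutant library. The groups overlapped, and Drs did not pass the filter, which asks for reads in 3 libraries. In the fit without the filter its adjusted p was 0.197 (edgeR). When a group is cut to 2 libraries the filter asks for reads in 2, which Drs meets through mutant replicates 2 and 3. It thus entered the edgeR fit without mutant replicate 1, with an adjusted p of 0.00481. It also entered without each control library in turn, with adjusted p of 0.299 to 0.349. The fit that called Drs leaves out the mutant library where it was at 0, so that call is a description. The 2 libraries with Drs are those with gut or spermatheca markers, but the amounts did not run in parallel, since gut markers without LManII had 3132 and 73 counts there and Send1 with Send2 had 0 and 71. Whether Drs came from those tissues was not tested. The 4 tested neighbours within 10 kb, Ythdc1 among them at 508 bp, had log2 fold changes of -0.12 to 0.14 and adjusted p of 0.0811 to 0.955 (edgeR).

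Def and Drs had the same order over the mutant libraries, highest in replicate 2 and lowest in replicate 1, but not in a fixed ratio. Drs had 0, 5.42 and 3.80 times the reads of Def in mutant replicates 1, 2 and 3. Def in turn had 1.03, 6.09 and 2.96 times the reads of Dro, so Dro was the steadiest of the called genes and the one member whose level was not highest in mutant replicate 2. Per kilobase of exon, the mean mutant levels were 68.7 CPM for Drs, 15.3 for Def, 2.40 for Dro, 1.04 for AttA and 0.684 for AttB, and the SD of Drs and AttB exceeded or equalled their means. In control ovaries Dro and Def led at 0.366 and 0.352 CPM per kilobase, a pair that did not differ beyond its spread, and no other member exceeded 0.0936.

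The diptericins and the remaining attacins were close to 0 in every library. Diptericins are glycine-rich peptides and standard readouts of Imd. DptA (FBgn0004240), at 18865765 to 18866260 on 2R, had 0, 8 and 3 counts in the mutant and 2, 0 and 0 in the control libraries, a ratio of 5.67 (counting interval 1.24 to 52.6). Without mutant replicate 2 that ratio was 2.25, and without mutant replicate 1 it was 8.95. DptB (FBgn0034407), its neighbour at 18867391 to 18867895, had 0, 4 and 0 against 1, 0 and 0, and AttC (FBgn0041579), at 13393705 to 13394667 on 2R, had 1, 8 and 3 against 2, 1 and 0. In all 3 the groups overlapped and the highest library was mutant replicate 2. Their adjusted p in the fit without the filter was 0.323, 0.607 and 0.291 (edgeR), and in mutant replicate 1 alone none of them exceeded the control range. AttC overlaps an exon of CG4744 by 53 bp and DptB an exon of CG43109 by 48 bp on the opposite strand, so single reads there may belong to either gene.

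AttD and Mtk gave no measurable difference at this depth. AttD (FBgn0038530), at 17625268 to 17626086 on 3R, encodes an attacin without a signal peptide, and had 2 counts in mutant replicate 2 and 0 in the other 5 libraries. Metchnikowin, the product of Mtk (FBgn0014865) at 15408846 to 15409113 on 2R, is a proline-rich antifungal peptide. Mtk had 2 counts in mutant replicate 2, 2 in control replicate 1 and 0 elsewhere. A count of 0 allows 0.113 to 0.138 CPM in these libraries, so low expression of these genes could not be seen.

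Among 45 other immune effector genes, 1 had enough reads to test and 15 were at 0 in every library. That gene, Dso2 (Daisho), had 23, 14 and 13 counts in the mutant and 9, 10 and 12 in the control libraries, a log2 fold change of 0.71 (SE 0.35, edgeR adjusted p = 0.221). In the fit without the filter, edgeR called 0 of the 30 detected genes higher and 3 lower, against backgrounds of 5.86% and 4.40%. At an unadjusted p under 0.05 that fit had 2 higher and 5 lower, without a share over all genes to set beside them. DESeq2 was run on the filtered genes, so it tested Dso2 alone of these effectors, and did not call it. Apart from Dso2, LysB and LysD, those described below were picked with their values in view.

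The cecropin gene CecA1, whose product kills Gram-negative bacteria, had 3, 36 and 13 counts in the mutant and 0 in each control library. Most of its reads came from mutant replicate 2, mutant replicate 1 lay at 0.117 CPM, within what a count of 0 allows in a control library, and its adjusted p in the fit without the filter was 0.199 (edgeR). CecA1 has a near-identical neighbour, CecA2, which had 0, 3 and 0 counts in the mutant libraries and 0 in the control libraries. Listericin, an Imd-responsive peptide gene, had 3, 7 and 3 counts against 0, 0 and 1, and an adjusted p of 0.0654 in that fit. In CecA1 and Listericin the mutant libraries lay above the control libraries by as few as 2 or 3 reads, and CecA1 was highest in mutant replicate 2, as most of the 10 members were.

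The lysozymes LysB and LysD, digestive enzymes of the midgut in flies, had reads almost solely in mutant replicate 2. LysB had 119 counts there and 0 in the other 5 libraries. LysD had 204 counts there, 2 in mutant replicate 3 and 0 in the others. Both followed the gut markers and were at 0 in mutant replicate 1, and LysB, LysC, LysD and LysE are so alike that reads may have been assigned to the wrong copy.

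The Bomanins, small peptides induced through Toll, did not follow the antimicrobial peptide genes. Their 12 genes summed to 18, 10 and 17 counts in mutant and 76, 40 and 16 in control libraries, so control replicate 3 lay in the mutant range. The 3 effector genes called lower were all Bomanins. BomS2 had 0 counts in each mutant library and 15, 9 and 1 in the control libraries, with an adjusted p of 0.0242 in the fit without the filter (edgeR). BomBc3 had 1, 0 and 0 against 11, 3 and 3 (adjusted p = 0.0370, edgeR). BomT3 had 1, 2 and 3 against 18, 9 and 4 (adjusted p = 0.0421, edgeR). The stress-induced Turandot genes summed to 6, 4 and 3 counts in mutant and 14, 10 and 14 in control libraries, and the one with the smallest p, TotC, had 2, 0 and 1 counts against 6, 2 and 9.

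**Figure D3:**
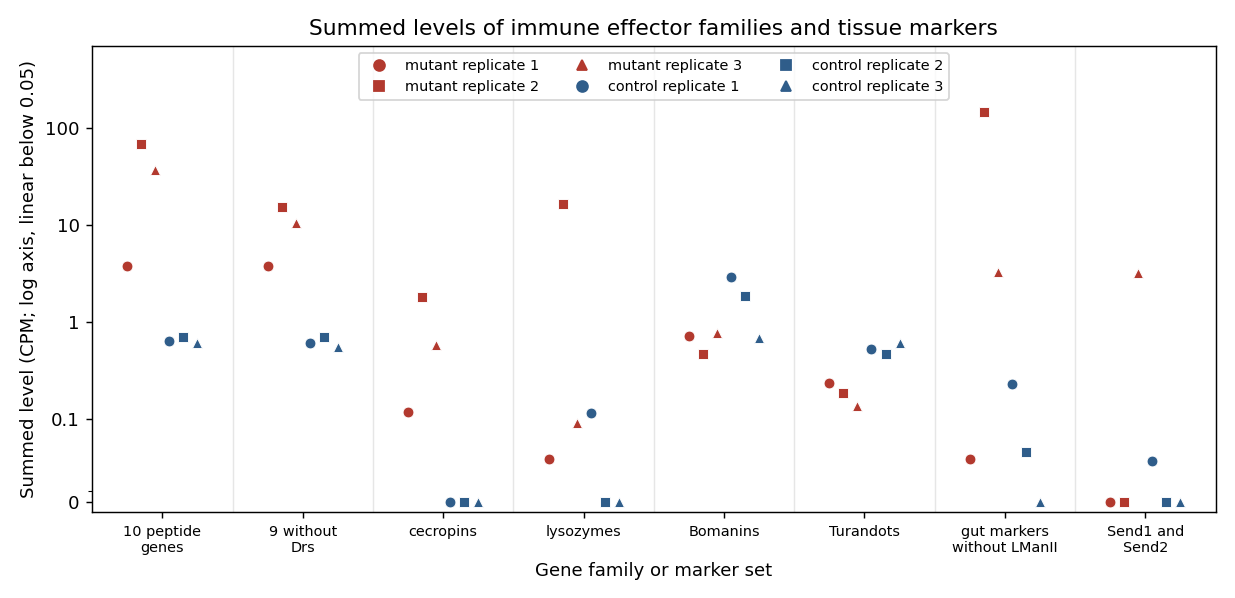
Summed level in every library of the 10 antimicrobial peptide genes, of the 9 without Drs, of related effector families and of gut and spermatheca markers, in CPM on a log axis that is linear below 0.05. The summed peptide genes are higher in every mutant library, cecropins have 3, 39 and 13 counts in mutant and 0 in control libraries, lysozymes and gut markers peak in mutant replicate 2 and Send1 with Send2 in mutant replicate 3, while Bomanins are at 0.460 to 0.759 CPM in mutant and 0.681 to 2.86 CPM in control libraries.

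Genes of the pathways that control the peptides differed in both directions. Of 42 tested genes in 5 lists of Imd and Toll components, 2 were called higher and 7 lower, where 8.31% and 6.20% of all tested genes were. Their median log2 fold change was -0.05. The number called was 3 without control replicate 1, 4 without mutant replicate 2 and 5 without control replicate 3. Over all genes, 566 of 8231, 739 of 8212 and 775 of 8231 tested were called there, and 1177 of 8110 with all libraries. Pathway genes called lower numbered 1, 2 and 3 in these fits and 4 without control replicate 2. Over all tested genes, those called lower numbered 247, 343, 328 and 348 in the same order.

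Imd receptors and signalling genes gave 1 call, lower, among 16 tested, a share near the 6.20% of all tested genes called lower. PGRP-LC, the main surface receptor for bacterial peptidoglycan, had 50, 38 and 19 counts in the mutant and 12, 29 and 24 in the control libraries, a log2 fold change of 0.72 (SE 0.43, edgeR adjusted p = 0.315). The adaptor gene imd was at -0.12 (SE 0.10), key, the kinase complex's regulatory subunit gene, at -0.12 (SE 0.05) and Rel, which encodes Relish, at 0.06 (SE 0.06), with adjusted p of 0.453, 0.131 and 0.520 (edgeR). Relish mRNA stood at 87.9 to 102 CPM in mutant and 88.4 to 93.5 CPM in control libraries, so the groups overlapped. IKKbeta, which encodes the kinase that acts on Relish, fell by 0.23 (SE 0.06, edgeR adjusted p = 0.0405), but an exon overlaps the RNA gene lncRNA:CR45212 on the same strand, and the call was lost whenever a library other than mutant replicate 1 was left out (adjusted p between 0.0505 and 0.130). Dredd and akirin, a caspase and a nuclear partner of Relish, were at -0.18 (SE 0.07) and -0.08 (SE 0.04) and did not pass.

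Of 8 tested negative regulators of Imd, 1 was called, lower, where 6.20% of all tested genes were. This was dnr1, a gene for an inhibitor of Dredd. It had 329, 203 and 199 counts in the mutant and 491, 311 and 396 in the control libraries, and the scaled groups did not overlap. It fell from 16.5 to 10.4 CPM, a log2 fold change of -0.67 (SE 0.15, edgeR adjusted p = 0.0212), and the call ended without mutant replicate 2, control replicate 1 or control replicate 3, at adjusted p of 0.0728, 0.0801 and 0.0735. With mutant replicate 1 as the sole mutant library dnr1 was at -0.37. PGRP-LB, a secreted amidase that degrades the bacterial signal and is itself an Imd target, was at 0.20 (SE 0.26, edgeR adjusted p = 0.656). The Imd feedback inhibitor gene pirk, also a target, had 8, 15 and 3 counts against 7, 6 and 9 and was too low to test.

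Toll recognition and protease genes moved in both directions, with 2 of 7 tested genes called higher and 1 lower. Of all tested genes, 8.31% were called higher and 6.20% lower. GNBP1 and GNBP3, which encode recognition proteins for Gram-positive bacteria and fungi, rose. GNBP1 had 227, 158 and 201 counts in the mutant and 112, 116 and 122 in the control libraries, a log2 fold change of 0.77 (SE 0.15, edgeR adjusted p = 0.00907). GNBP3 had 149, 117 and 144 against 91, 67 and 82, a log2 fold change of 0.82 (SE 0.16, edgeR adjusted p = 0.00861). The groups did not overlap in either gene and all 3 mutant libraries were alike. Without mutant libraries 2 and 3, GNBP1 was at 0.86 and GNBP3 at 0.80. Without both libraries numbered 2, GNBP1 was at 0.93 (adjusted p = 0.0237, edgeR) and GNBP3 at 0.82 (adjusted p = 0.0514, edgeR).

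Hayan, which encodes a serine protease of the blood that acts in Toll signalling and melanization, showed the largest fall of the 42 tested pathway genes. It had 16, 11 and 10 counts in the mutant and 122, 90 and 126 in the control libraries, with a wide gap between the groups. Its log2 fold change was -3.14 (SE 0.25, edgeR adjusted p = 7.0e-05). Its exons overlap the antisense gene asRNA:CR45714 by 872 bp on the opposite strand, and reads of the pair cannot be told apart if strand was not used in counting. The Toll ligand gene spz was at -0.10 (SE 0.04, edgeR adjusted p = 0.144), and nec, which encodes a protease inhibitor of the cascade, was at -0.59 (SE 0.24, edgeR adjusted p = 0.137).

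In the ovary the Toll pathway has a second role, since its maternal mRNAs pattern the embryo. Of 11 tested Toll signalling genes, edgeR called 4 lower and 0 higher, all by small amounts, where 6.20% and 8.31% of all tested genes were called. DESeq2 also called 4 lower and 0 higher, where it called 7.29% and 8.14% of all tested genes. At an unadjusted p under 0.05 edgeR had 5 lower, Tl being the fifth, and 0 higher, without a share over all genes beside them. The 4 that edgeR called included cact, the inhibitor that holds Dorsal in the cytoplasm, at -0.21 (SE 0.04). The others were the kinase gene pll at -0.24 (SE 0.05), dl, which encodes Dorsal, at -0.20 (SE 0.05) and the Pellino gene Pli at -0.16 (SE 0.04). Their edgeR adjusted p, in the order given, was 0.0122, 0.0136, 0.0306 and 0.0350. All 4 calls were lost when control replicate 1 was left out, with adjusted p of 0.0595, 0.0687, 0.0897 and 0.136. That of cact was also lost without mutant replicate 1 (0.0507) and that of pll without mutant replicate 2 (0.0531). Mutant replicate 3 was the one library that dl could spare, and mutant replicate 1 the one that Pli could. The receptor gene Tl was at -0.10 (SE 0.04, edgeR adjusted p = 0.152). Dif, the Toll factor of the adult immune response, was at -0.06 (SE 0.35, edgeR adjusted p = 0.934). The 6 genes of the protease cascade that starts dorsal-ventral patterning had a median log2 fold change of -0.04 and 0 calls by edgeR or DESeq2. At an unadjusted p under 0.05 edgeR had 1 higher and 1 lower there, again without a share over all genes.

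**Figure D4:**
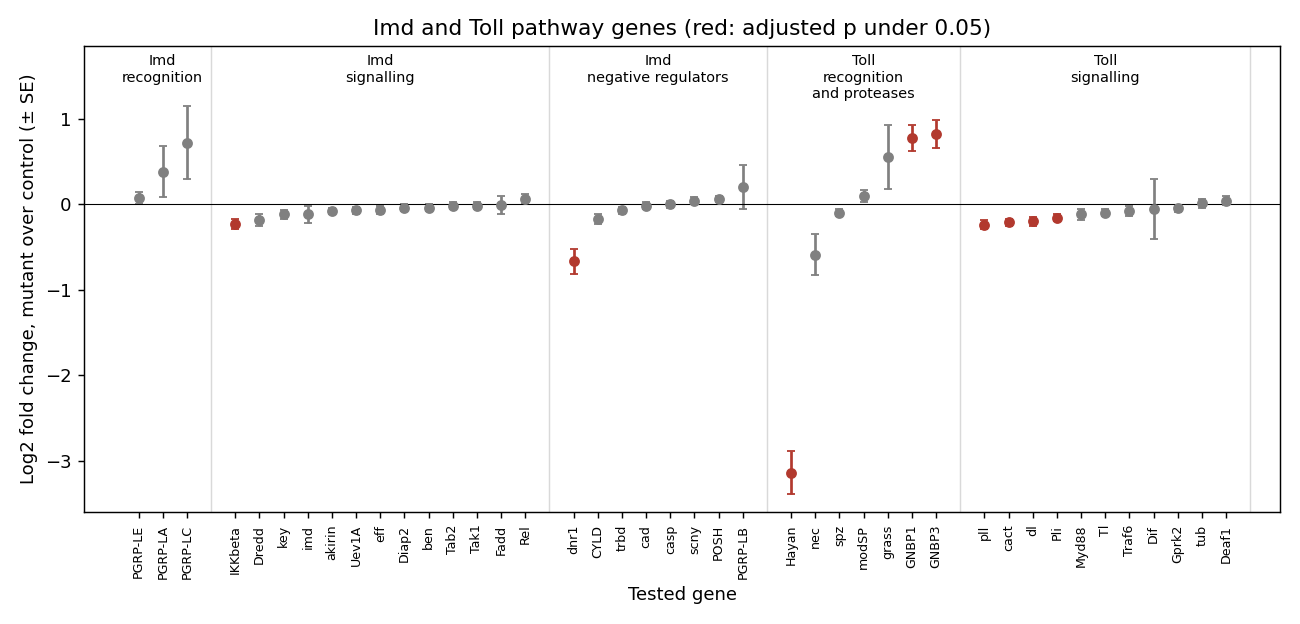
Log2 fold change, mutant over control, with SE bars, of the 42 tested Imd and Toll pathway genes, grouped by role and ordered by value within a group. Red points passed an adjusted p under 0.05 and grey points did not, and Hayan at -3.14, GNBP1 at 0.77 and GNBP3 at 0.82 lie farthest from 0 among the red points with dnr1 at -0.67.

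Besides the gut and spermatheca markers given above, markers of the fat body, hemocytes, muscle and neurons were measured. Of 10 fat body markers, 9 were detected and to was at 0, and they summed to 48.3 to 59.4 CPM in mutant and 58.8 to 82.7 CPM in control libraries. Most of this came from ppl, at 35.5 to 39.7 CPM in all libraries, and from apolpp. The latter was at 11.4 to 21.1 CPM in mutant and 20.2 to 40.3 CPM in control libraries (edgeR adjusted p = 0.185). Of the storage protein genes, Lsp1beta had 33, 7 and 4 counts in the mutant and 1, 5 and 0 in the control libraries, and Lsp2 had 4, 2 and 0 against 10, 26 and 1. All 12 hemocyte markers were detected, at a sum of 310 to 355 CPM in mutant and 348 to 367 CPM in control libraries. That sum was carried by crq, at 5051 to 6433 counts, and srp, at 1833 to 2837 counts per library. Of the other hemocyte markers, Pxn had 150, 110 and 56 counts in the mutant and 49, 69 and 72 in the control libraries (edgeR adjusted p = 0.186). PPO2 had 11, 1 and 2 counts against 0, 0 and 1, Hml had 7, 11 and 2 against 5, 1 and 4, and eater had 1, 1 and 0 against 0 in each. The remaining 6, NimC1, NimC2, He, Sr-CI, PPO1 and lz, had at most 3 counts in any library. The 11 muscle markers summed to 578 to 701 against 628 to 700 CPM, of which Tm1 made up 447 to 512 CPM per library. The 7 neuron markers, 6 of them detected, summed to 3.84 to 6.10 against 2.78 to 3.91 CPM. The part of these tissues in the peptide levels was not tested.

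The tested genes most like Def over the 6 libraries were SerT, CG6912 and Ssl2. Likeness was the root mean square difference of mean-centred log2 CPM, which was 0.66 for SerT, the serotonin transporter gene, 0.78 for CG6912 and 0.79 for Ssl2, where the median gene was at 2.36. SerT had 24, 33 and 31 counts in the mutant and 0 in each control library. For Drs, the nearest tested gene was Def at 2.21, followed by CG18628 at 2.74 and SerT at 2.86, where the median was 4.04. CG18628 had 60, 697 and 349 counts in the mutant and 91, 85 and 90 in the control libraries, so it shared the excess of Drs in mutant replicates 2 and 3 but was present everywhere. Likeness over 6 libraries in 2 groups is given as a description.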

How the data were processed

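The authors deposited unnormalized gene-level read counts for each library, from poly(A)-selected directional NEBNext Ultra II libraries, per the labels' protocols. The submitters' processing notes name TopHat2, HTSeq, DESeq2, dm6 and BDGP6. The annotation release was not given in the sources used here, nor were tool versions or the strand setting. Gene symbols came from the BDGP6 annotation, by ID for 17253 genes and by position (reciprocal overlap of at least 90%) for 216, and 17169 had identical coordinates. Totals were 21583524 to 26483578 counts.

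Genes were kept by filterByExpr (minimum count 10), scaled with TMM and tested in edgeR 4.0.16 (R 4.3.3), mutant against control without covariates, which left 8110. SE is the log2 fold change over the root of the F statistic. Counting intervals are exact (Clopper-Pearson, 95%), floors are 3 counts, and both cover counting error only, as the labels mention no molecular identifiers. The alternatives were other scalings and filters, DESeq2 1.42.0, limma-voom (limma 3.58.1), a replicate block and omitted libraries. Scripts were tested on simulated data. The named genes were all 10 members, called genes and up to 4 with the smallest p per pathway list, 11 core pathway genes, the most abundant other effectors and the nearest profiles. The members, the 14 other lists and these rules were chosen with earlier results of these data known. Members were chosen by name.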

Additional observations from a re-analysis of the deposited data

How the results depend on the processing

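Calls are not counted for the alternative with mutant replicate 1 as the sole mutant library. In every other alternative Dro was called higher, at log2 fold changes of 2.33 to 3.36. AttA was called higher in every other one that tested it, and a filter of 1 CPM in 3 libraries set AttA aside. Def kept its direction in all 15 alternatives. It lost its call by limma-voom, without mutant replicate 3, without each control library in turn and without both libraries numbered 2. The number of members called ranged from 2 to 4 when single libraries were left out. Drs was the fourth, without mutant replicate 1, the mutant library where it was at 0. Single libraries moved the count of all called genes between 566 and 1475 (319 to 861 higher, 247 to 614 lower) and of pathway genes between 3 and 7 (2 higher throughout, 1 to 5 lower). Without both libraries numbered 2, 516 genes were called, 243 higher and 273 lower, and 2 pathway genes, 1 in each direction. Without mutant libraries 2 and 3, an alternative chosen after the data were seen, 708 were called, 425 higher and 283 lower, and 4 pathway genes, 1 higher and 3 lower. A replicate block gave 728 calls, 418 higher and 310 lower, with 4 pathway genes lower and the same 3 members called. Same-numbered libraries did not deviate together (correlations of -0.23, -0.26 and -0.12), and differently numbered ones correlated at -0.09 to 0.29. Deviations from means of 3 libraries are tied to each other, so these values cannot settle whether the numbers pair the libraries. Dif, at -0.06, ranged from -0.37 to 0.26 when single libraries were left out, reversing to 0.26 without mutant replicate 3 and 0.10 without control replicate 2, and was at 0.03 without both libraries numbered 2 and 0.41 without mutant libraries 2 and 3. The cause of these changes was not tested beyond the fewer libraries used. With 0 to 10 reads per control library, depth limits the size of every ratio given for the members.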
